A study of Mus musculus with 10 samples.

Results

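Mitochondrial ribosomal protein genes were followed in the livers of ethanol-fed mice of 2 genotypes. They were taken as every gene whose symbol begins with Mrpl or Mrps and a digit, is not a pseudogene symbol, and had a mean level of at least 0.5 FPKM (fragments scaled to transcript length and to library size) over 10 libraries. Of 84 symbols with that pattern, 6 were pseudogene symbols and none of the others lay below 0.5 FPKM, which left 78 genes of 55401 in the table and of 12731 genes tested. There were 49 Mrpl and 29 Mrps genes on 17 chromosomes. The lowest of them, Mrpl48, had a mean of 1.97 FPKM, so no gene lay close to the minimum on either side.

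Livers labelled NIKhKO came from 5 mice and livers labelled NIKflox from 5 more. The design text writes the genotypes as NIKHKO and NIKF/F, and the title speaks of hepatic NIK, the NF-kB inducing kinase that Map3k14 encodes. For 4 weeks all 10 mice received the liquid diet of Lieber and DeCarli, which held 5% ethanol, so ethanol was common to both genotypes and a diet without ethanol was not analysed here. The Cre driver, the deleted part of the gene, and the age and sex of the mice are not given in the sources used here. RNA was taken from whole liver and enriched with oligo(dT) beads. No label says whether the mice of a genotype came from separate litters, so p-values measure the spread between these samples only.

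Mitochondria carry their own ribosome, which translates only the few messages of mitochondrial DNA, all of them for subunits of the respiratory chain and ATP synthase. Its ribosomal RNAs are encoded in mitochondrial DNA, whereas every protein of its large and small subunits is encoded in the nucleus, made in the cytosol and imported. Some of these proteins have a counterpart in the bacterial ribosome and others are specific to mitochondria. Hepatocytes are rich in mitochondria, and mitochondrial translation is needed there to renew the respiratory chain.

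Map3k14 read 0.347, 0.361, 0.443, 0.389 and 0.373 FPKM in NIKhKO livers 1 to 5, against 0.553, 0.510, 0.585, 0.899 and 0.483 FPKM in NIKflox livers 1 to 5. Every NIKhKO liver lay below every NIKflox liver (exact two-sided permutation test of the means, p = 0.0079, the smallest that the design allows). In the fit across all genes its log2 fold change, NIKhKO minus NIKflox here and below, was -0.59 (SE 0.19, adjusted p = 0.33, edgeR's quasi-likelihood test with Benjamini-Hochberg adjustment). Estimated counts summed to 53225028 to 64321202 per NIKhKO library and to 47161869 to 65052525 per NIKflox library. The libraries held 8.64 to 12.7% of counts from mitochondrially encoded genes in NIKhKO livers and 7.15 to 11.1% in NIKflox livers. Hepatocyte markers summed to 45629 to 52782 FPKM in NIKhKO livers and to 42415 to 57677 FPKM in NIKflox livers, far above every other marker list. A list of 19 heart and skeletal muscle markers summed to 1.71 to 4.19 FPKM in NIKhKO livers and to 3.90 to 52.6 FPKM in NIKflox livers, with NIKflox 2 and 4 at 23.6 and 52.6 FPKM. Adipose markers summed to 29.4 FPKM in NIKflox 2 and to at most 4.8 FPKM in the other 9 libraries. The fit across all genes was therefore also computed without NIKflox 2 and 4. Levels, their order and spread, sums and values per liver below rest on all 10 livers.

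Promoters were read for 69 of the 78 genes from the RefSeq promoter table (build GRCm38.p6), which gives 250 bases before and 50 after a gene's start and held 75 promoters for these genes. Of these 75, 14 (18.7%) held the NRF1-type motif, which was taken as GCGC, any 2 bases and GCGC and searched on both strands, against 12.9% of the promoters of genes tested and 6.23% of all 32851 promoters in the table. NRF1, nuclear respiratory factor 1, is a transcription factor known for its binding to promoters of nuclear genes for mitochondrial proteins. The ETS-type motif CCGGAAGT, the kind GABP (nuclear respiratory factor 2) binds, stood on either strand of 12 promoters (16%), against 8.15% for genes tested and 3.89% for all. The YY1-type motif AAGATGGCG stood on either strand of 8 promoters (10.7%), against 3.14% and 1.4%. A TATAAA box stood on either strand of 5 promoters (6.67%), against 7.83% and 13.6%. None of these motifs contains another, each was counted separately, and a match describes letters, not a bound site.

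The promoters of the 3 genes with the smallest p-values in the comparison of genotypes, Mrpl14, Mrpl32 and Mrpl17, are shown with that of the most abundant gene, Mrpl12, because each holds the NRF1-type motif, given in capitals. That of Mrps11 is shown for its YY1-type motif, in capitals on the complementary strand, and because 141 of its 300 bases also stand in the RefSeq promoter of a second mitochondrial ribosomal protein gene, Mrpl46, which is transcribed the other way and whose deposited coordinates reach across the region. The 141 shared bases begin after the capitals in the Mrps11 line, so the marked motif is not among them. Each line runs 5′ to 3′ in the direction of transcription. The regions are chr17:45686099-45686398 on the plus strand for Mrpl14, chr13:14612988-14613287 on the minus strand for Mrpl32, chr7:105811038-105811337 on the minus strand for Mrpl17, chr11:120484387-120484686 on the plus strand for Mrpl12 and chr7:78782881-78783180 on the plus strand for Mrps11.
Mrpl14: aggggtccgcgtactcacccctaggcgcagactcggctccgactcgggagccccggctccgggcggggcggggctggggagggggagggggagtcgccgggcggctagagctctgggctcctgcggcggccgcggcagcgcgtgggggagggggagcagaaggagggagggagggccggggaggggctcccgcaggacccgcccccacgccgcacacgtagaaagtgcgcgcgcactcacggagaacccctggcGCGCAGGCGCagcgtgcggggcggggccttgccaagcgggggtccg
Mrpl32: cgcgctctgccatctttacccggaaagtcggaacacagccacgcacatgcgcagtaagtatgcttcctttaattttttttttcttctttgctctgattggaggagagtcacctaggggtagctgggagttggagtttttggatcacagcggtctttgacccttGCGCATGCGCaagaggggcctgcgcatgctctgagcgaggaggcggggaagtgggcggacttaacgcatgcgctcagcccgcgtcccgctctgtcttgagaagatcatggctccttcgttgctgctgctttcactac
Mrpl17: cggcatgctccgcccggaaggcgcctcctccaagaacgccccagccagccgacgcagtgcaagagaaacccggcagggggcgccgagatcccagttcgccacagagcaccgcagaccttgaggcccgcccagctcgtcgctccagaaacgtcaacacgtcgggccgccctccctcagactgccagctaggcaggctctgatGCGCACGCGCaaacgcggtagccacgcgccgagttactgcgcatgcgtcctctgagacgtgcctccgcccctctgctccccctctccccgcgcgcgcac
Mrpl12: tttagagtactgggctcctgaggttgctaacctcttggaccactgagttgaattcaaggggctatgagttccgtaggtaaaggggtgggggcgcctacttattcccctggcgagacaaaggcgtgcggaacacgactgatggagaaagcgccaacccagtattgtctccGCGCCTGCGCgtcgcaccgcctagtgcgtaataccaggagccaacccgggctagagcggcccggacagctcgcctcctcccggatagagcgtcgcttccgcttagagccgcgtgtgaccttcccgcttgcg
Mrps11: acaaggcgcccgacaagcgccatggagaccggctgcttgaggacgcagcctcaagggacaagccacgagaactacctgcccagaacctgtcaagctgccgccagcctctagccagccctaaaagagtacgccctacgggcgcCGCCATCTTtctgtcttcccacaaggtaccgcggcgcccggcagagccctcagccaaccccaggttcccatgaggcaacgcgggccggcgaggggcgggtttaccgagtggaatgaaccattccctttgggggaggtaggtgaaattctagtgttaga

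The genes spanned a 40.6-fold range of level, with a median of 11.3 FPKM and quartiles of 4.98 and 18.9 FPKM, against a median of 3.25 FPKM over all genes tested. Mrpl12, the bL12m protein of the stalk that recruits translation factors, was the highest at 82.1 ± 4.57 FPKM in NIKhKO livers and 78.004 ± 7.16 FPKM in NIKflox livers (SD, n = 5 each). Mrps21, a small-subunit protein, followed at 44.5 ± 8.42 FPKM in NIKhKO livers and 44.2 ± 3.65 FPKM in NIKflox livers. Over the 10 livers Mrpl12 did not overlap Mrps21 (77.2 to 89.3 FPKM in NIKhKO and 70.6 to 87.9 FPKM in NIKflox for Mrpl12, against 35.7 to 55.0 FPKM and 39.9 to 49.4 FPKM for Mrps21). Next came Mrpl34 (bL34m) with a mean of 43.7 FPKM over all livers, Mrpl14 (uL14m) with 43.3 FPKM and Mrpl18 (uL18m, which binds 5S ribosomal RNA in bacteria) with 36.8 FPKM. The 5 highest genes gave 22.6% of the summed FPKM of all 78. At the other end stood Mrpl48 at 1.97 FPKM, Mrpl33 at 2.06, Mrpl19 at 2.08, Mrpl3 at 2.66 and Mrpl53 at 2.84 FPKM, all of the large subunit. Of the 77 pairs of neighbours in this order, 6 differed by more than the larger SD over the 10 livers, and Mrpl12 and Mrps21 were the only pair whose ranges were apart.

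**Figure D1:**
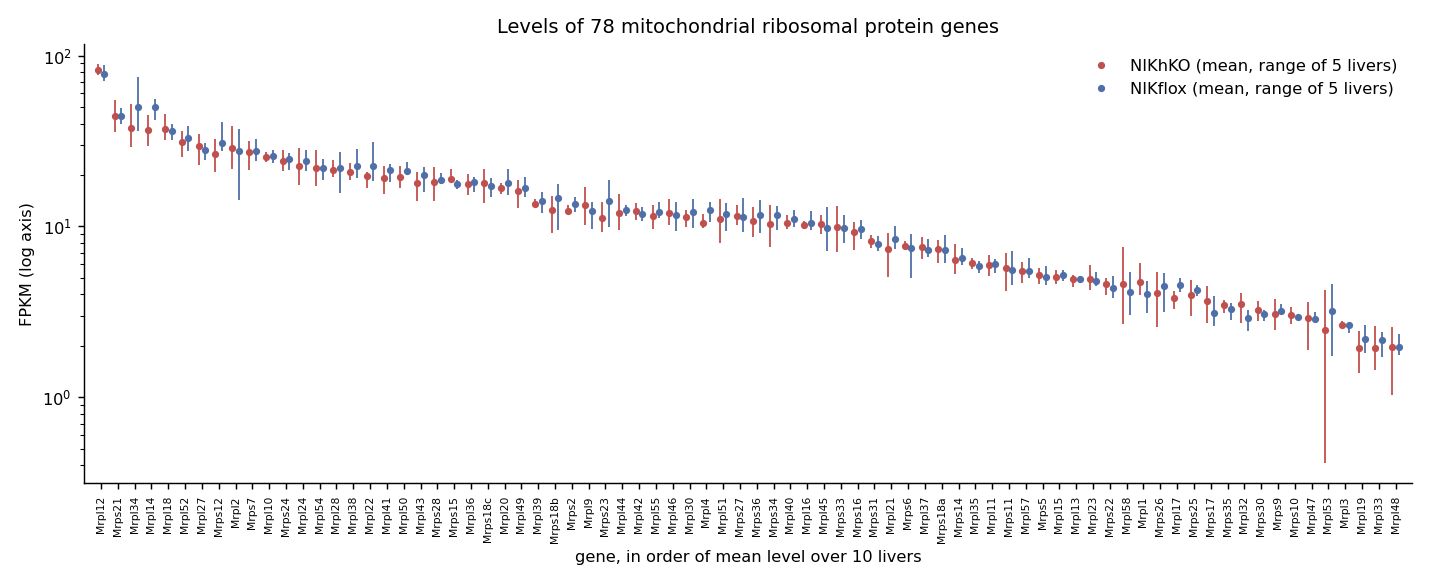
Level of each of the 78 genes in FPKM on a log axis, ordered by the mean over 10 livers, with NIKhKO (red) left of NIKflox (blue), dots for means and lines for the range of 5 livers. Mrpl12 stands alone at the top at 80.0 FPKM, and Mrpl53 has the widest range, down to 0.41 FPKM in 1 NIKhKO liver.

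The order depended on the length by which reads were divided. The deposited FPKM followed the length of all annotated exons of a gene merged, for 98.6% of genes tested and for all 78 mitochondrial ribosomal protein genes (within 0.1 on the log2 scale), and followed the longest coding transcript for 15.6% of genes tested. Recomputed per kilobase of the longest coding transcript, a scale chosen after the data were seen, Mrpl12 was again highest at 93.2, followed by Mrpl52 at 76.7, Mrps21 at 67.2, Mrpl42 at 66.4 and Mrpl14 at 63.8. Of the 5 highest, 3 were shared between the scales. Mrpl42 (mL42) moved from rank 33 to rank 4, and Mrpl33 (bL33m), whose 11 annotated transcripts merge to 7326 exon bases against 478 in the longest coding one, moved from 2.06 to 31.6. Genes whose merged exons are much longer than their longest coding transcript therefore read lower in the deposited values than on this scale. Such levels compare between livers but less well between genes.

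None of the 78 genes passed an adjusted p of 0.05 between NIKhKO and NIKflox livers (edgeR's quasi-likelihood test with Benjamini-Hochberg adjustment over all genes tested), where 0.0236% of all genes tested did. The lowest adjusted p was 0.29, for Mrpl14. At an unadjusted p below 0.05 there were 3 of 78, or 3.85%, against 10% of all genes tested. Of these, 1 was higher in NIKhKO livers (4.85% of all genes) and 2 were lower (5.14% of all genes). In none of the 78 did the FPKM ranges of the genotypes fail to overlap, which 2.2% of all genes tested did. The count of unadjusted p below 0.05 was 7 with voom and sample weights, 2 with DESeq2 and 1 without NIKflox 2 and 4, and the adjusted test called none of the 78 under any of these.

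The log2 fold changes ran from -0.39 for Mrpl14 to 0.33 for Mrpl32, and 70 of the 78 lay within 0.2 of zero. Their quartiles were -0.04 and 0.10, against -0.16 and 0.13 over all genes tested, which were not matched to the 78 for level. The approximate 95% interval lay within a 1.5-fold change in either direction for 69 genes and reached beyond it for 9, which were Mrpl14, Mrpl32, Mrpl1, Mrpl34, Mrps17, Mrps23, Mrpl58, Mrpl53 and Mrpl2. The median SE was 0.11. Leaving out 1 liver moved the log2 fold change by over 1.5 times for 22 of the 32 genes chosen for naming. The median log2 fold change was 0.03 with 47 of 78 positive (60.3%, against 48.2% of all genes tested), but it was -0.04 with 31 of 78 positive when counts were scaled by library totals alone, and 29 of 78 were positive in limma on log2(FPKM + 1). The median over all genes tested was -0.01, and -0.08 with library totals. No direction of the set as a whole is therefore given.

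**Figure D2:**
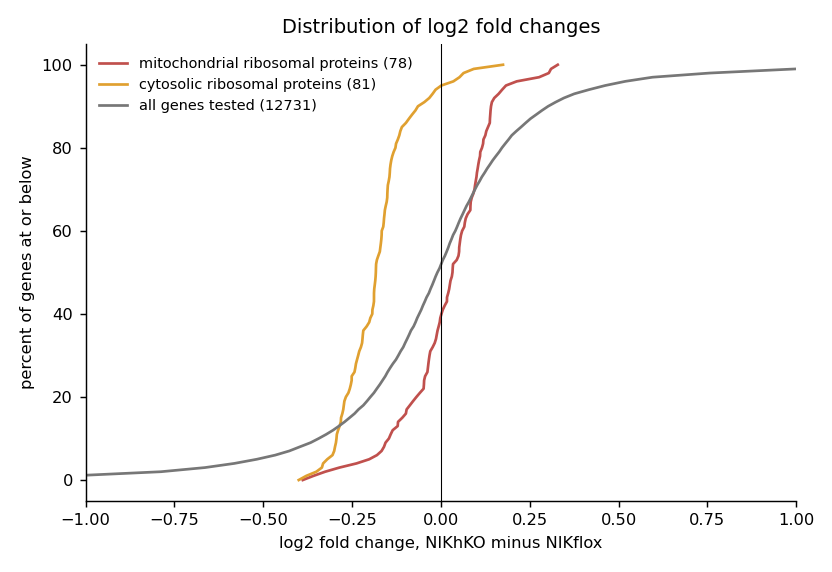
Cumulative share of genes (percent at or below) by log2 fold change, NIKhKO minus NIKflox, for the 78 mitochondrial ribosomal protein genes (red), 81 cytosolic ribosomal protein genes (orange) and 12731 genes tested (grey), with the x axis limited to changes within 1 in either direction. The red curve is steeper than the grey one, with quartiles of -0.04 and 0.10 against -0.16 and 0.13, without matching for level. The orange curve lies mostly to the left of zero with a median of -0.18.

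Mrpl14 encodes uL14m, a conserved protein on the face of the large subunit that meets the small one. It read 35.5, 44.8, 29.5, 32.5 and 41.0 FPKM in NIKhKO livers 1 to 5, against 50.7, 48.7, 41.8, 55.6 and 53.3 FPKM in NIKflox livers 1 to 5. The ranges overlapped through NIKhKO 2, which lay above NIKflox 3, and the other 4 NIKhKO livers lay below every NIKflox liver. Mrpl14 (ENSMUSG00000023939, chromosome 17, 45686322 to 45698495, plus strand) averaged 36.7 ± 6.23 FPKM in NIKhKO livers and 50.001 ± 5.27 FPKM in NIKflox livers (SD, n = 5 each). Its log2 fold change was -0.39 (SE 0.12, 95% interval -0.64 to -0.13, adjusted p = 0.29, edgeR's quasi-likelihood test). Leaving out single livers moved it between -0.44 and -0.33. Of its exon bases, 11.2% overlap those of Tmem63b, which lies head to head with it on the other strand and averaged 18.3 ± 3.02 FPKM in NIKhKO livers and 18.2 ± 2.71 FPKM in NIKflox livers, with a log2 fold change of 0.07.

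Mrpl32 encodes bL32m, which in mouse and yeast is processed by the m-AAA protease of the inner membrane before it joins the large subunit. Mrpl32 read 3.60, 3.69, 4.07, 3.40 and 2.71 FPKM in NIKhKO livers 1 to 5, against 3.26, 2.94, 2.72, 3.13 and 2.45 FPKM in NIKflox livers 1 to 5. Of the NIKhKO livers, 4 lay above every NIKflox liver, and NIKhKO 5 lay among the NIKflox livers. The means were 3.49 ± 0.501 FPKM in NIKhKO and 2.90 ± 0.323 FPKM in NIKflox (SD, n = 5 each), with a log2 fold change of 0.33 (SE 0.13, adjusted p = 0.43, edgeR's quasi-likelihood test). The gene (ENSMUSG00000015672) lies on chromosome 13 from 14608184 to 14613165 on the minus strand.

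Mrpl17 encodes bL17m, which in the bacterial ribosome sits near the exit of the peptide tunnel. Mrpl17 (ENSMUSG00000030879, chromosome 7, 105803206 to 105811099, minus strand) read 3.80, 3.99, 3.68, 4.17 and 3.30 FPKM in NIKhKO livers 1 to 5, against 4.60, 4.38, 4.97, 4.56 and 4.12 FPKM in NIKflox livers 1 to 5. The ranges touched only at NIKhKO 4, which lay just above NIKflox 5. The means were 3.79 ± 0.330 FPKM in NIKhKO and 4.53 ± 0.311 FPKM in NIKflox (SD, n = 5 each), with a log2 fold change of -0.19 (SE 0.09, adjusted p = 0.48, edgeR's quasi-likelihood test). Mrpl4, whose protein uL4m lines the narrow part of that tunnel, read 11.9, 10.5, 9.94, 10.6 and 9.81 FPKM in NIKhKO livers, against 12.2, 10.6, 13.3, 13.9 and 12.1 FPKM in NIKflox livers. It overlapped through NIKhKO 1 and NIKflox 2, and its log2 fold change of -0.17 (SE 0.08) had an adjusted p of 0.55. Mrpl22, for uL22m of the same tunnel wall, had 19.7 ± 1.61 FPKM in NIKhKO and 22.7 ± 4.87 FPKM in NIKflox (SD, n = 5 each). Its log2 fold change of -0.16 was 0.0079 without NIKflox 1, the liver with 31.1 FPKM.

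**Figure D3:**
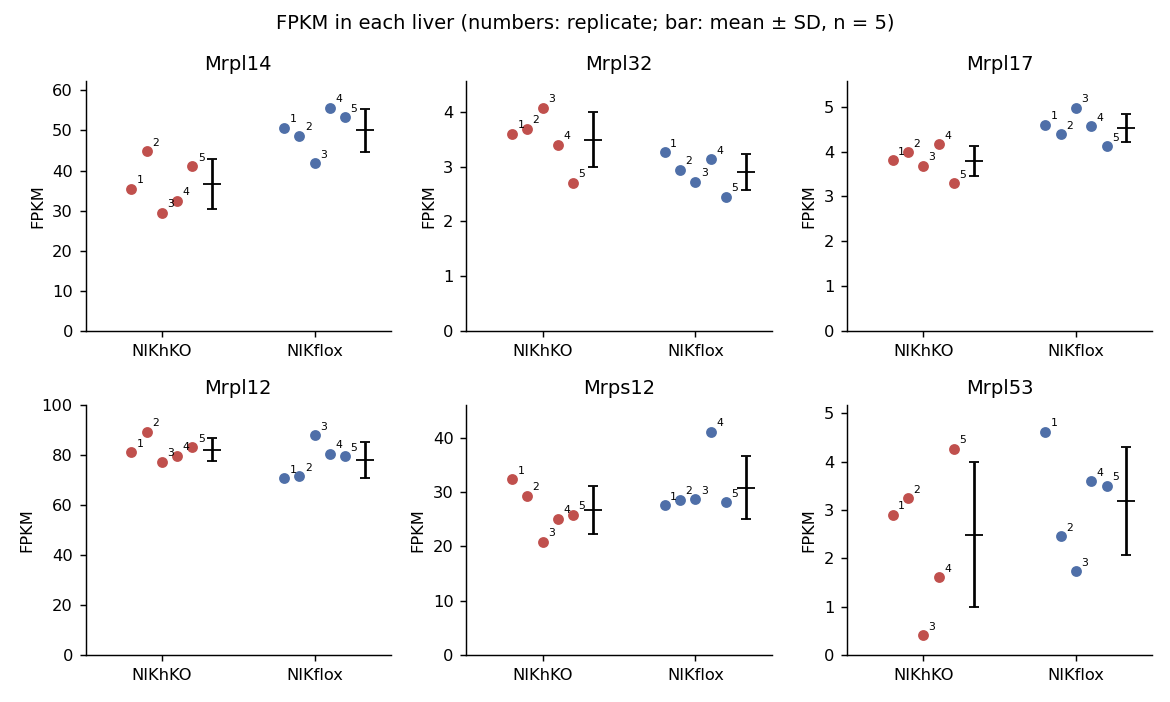
FPKM of 6 genes in each liver, NIKhKO (red) left of NIKflox (blue), with the replicate number beside each dot and the mean ± SD (n = 5) as a bar; each axis starts at 0. The genotypes overlap in all 6, through 1 NIKhKO liver for Mrpl14, Mrpl32 and Mrpl17, and NIKflox 4 stands apart for Mrps12 at 41.1 FPKM.

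Among the other genes of the large subunit with a bacterial counterpart, Mrpl34 read 51.8, 36.7, 29.3, 38.8 and 30.8 FPKM in NIKhKO livers, against 49.1, 36.1, 47.2, 74.5 and 43.3 FPKM in NIKflox livers. NIKflox 4 was its highest liver, and without it the log2 fold change of -0.35 (SE 0.19, adjusted p = 0.58, edgeR's quasi-likelihood test) was -0.18. Mrpl1, for uL1m of the stalk that moves spent transfer RNA out of the ribosome, had 4.71 ± 0.917 FPKM in NIKhKO and 4.01 ± 0.609 FPKM in NIKflox (SD, n = 5 each), with a log2 fold change of 0.30 (SE 0.15, adjusted p = 0.56) that was 0.18 without NIKhKO 5. Mrpl12 had a log2 fold change of 0.14 (SE 0.07, adjusted p = 0.59), and its 5 NIKhKO livers lay within 77.2 to 89.3 FPKM. Mrpl21 (bL21m) had 7.36 ± 1.56 FPKM in NIKhKO and 8.46 ± 0.964 FPKM in NIKflox, with a log2 fold change of -0.14 that was -0.05 without NIKhKO 3. Mrpl2, for uL2m near the catalytic centre, had the widest relative spread over NIKflox livers after Mrpl53, from 21.6 to 38.6 FPKM in NIKhKO livers and 14.2 to 37.2 FPKM in NIKflox livers. Its log2 fold change of 0.13 had an SE of 0.23 and was -0.03 without NIKflox 1. Mrpl13 (uL13m) was among the 3 steadiest genes over NIKflox livers, with 4.93 ± 0.308 FPKM in NIKhKO and 4.92 ± 0.189 FPKM in NIKflox (SD, n = 5 each). Mrpl3, for uL3m near the catalytic centre, had 2.65 ± 0.139 FPKM in NIKhKO and 2.66 ± 0.170 FPKM in NIKflox. Mrpl33 (bL33m) and Mrpl19 (bL19m) had log2 fold changes of -0.10 and -0.12, with SEs of 0.16 and 0.15. Mrpl33 ran from -0.22 without NIKhKO 1 to -0.02 without NIKhKO 3, and Mrpl19 was -0.04 without NIKhKO 3.

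Of 30 large-subunit genes with a bacterial counterpart, 18 had a log2 fold change above zero and 12 below, and all 3 genes with an unadjusted p below 0.05 were among them. The 21 large-subunit genes specific to mitochondria split 12 to 9 with a median of 0.01. They include Mrps30 (mL65) and Mrps18a (mL66), whose proteins sit in the large subunit in spite of their Mrps symbols. Mrps30 had 3.26 ± 0.382 FPKM in NIKhKO and 3.06 ± 0.196 FPKM in NIKflox, and Mrps18a 7.42 ± 0.919 FPKM in NIKhKO and 7.31 ± 1.20 FPKM in NIKflox (SD, n = 5 each). Their log2 fold changes were 0.15 and 0.08 (adjusted p = 0.71 and 0.86, edgeR's quasi-likelihood test). Mrpl42 and Mrpl37 had log2 fold changes of 0.12 and 0.13 with adjusted p of 0.71 and 0.72. Mrpl58, for the mL62 protein known in human cells as a peptide-releasing hydrolase, had 4.62 ± 1.86 FPKM in NIKhKO and 4.13 ± 1.02 FPKM in NIKflox with a log2 fold change of 0.22 (SE 0.24). Mrpl45 (mL45), which in mammals ties the tunnel exit to the inner membrane, had 10.3 ± 1.22 FPKM in NIKhKO and 9.75 ± 2.29 FPKM in NIKflox, with a log2 fold change of 0.14 (SE 0.14).

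For Mrpl53 and Mrpl48, both of the large subunit, the assignment of reads is uncertain. Mrpl53 read 2.90, 3.25, 0.41, 1.61 and 4.27 FPKM in NIKhKO livers, against 4.62, 2.46, 1.73, 3.60 and 3.50 FPKM in NIKflox livers, from counts of only 22 to 230. In the annotation 88% of its exon bases are shared with a neighbouring gene on the same strand, Gm42688, which averaged 4.74 ± 0.431 FPKM in NIKhKO and 5.59 ± 0.607 FPKM in NIKflox (SD, n = 5 each), so the split of reads between them is uncertain. Its log2 fold change of -0.31 had an SE of 0.48, and was -0.04 without NIKhKO 3 and -0.60 without NIKhKO 5. Mrpl48 read 2.57, 2.49, 1.70, 1.03 and 2.05 FPKM in NIKhKO livers, against 1.83, 1.77, 1.89, 2.34 and 2.04 FPKM in NIKflox livers. Its processed pseudogene Mrpl48-ps was listed higher than the gene, at 5.73 ± 1.17 FPKM in NIKhKO and 6.23 ± 1.56 FPKM in NIKflox, and reads may be shared between the copies.

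**Figure D4:**
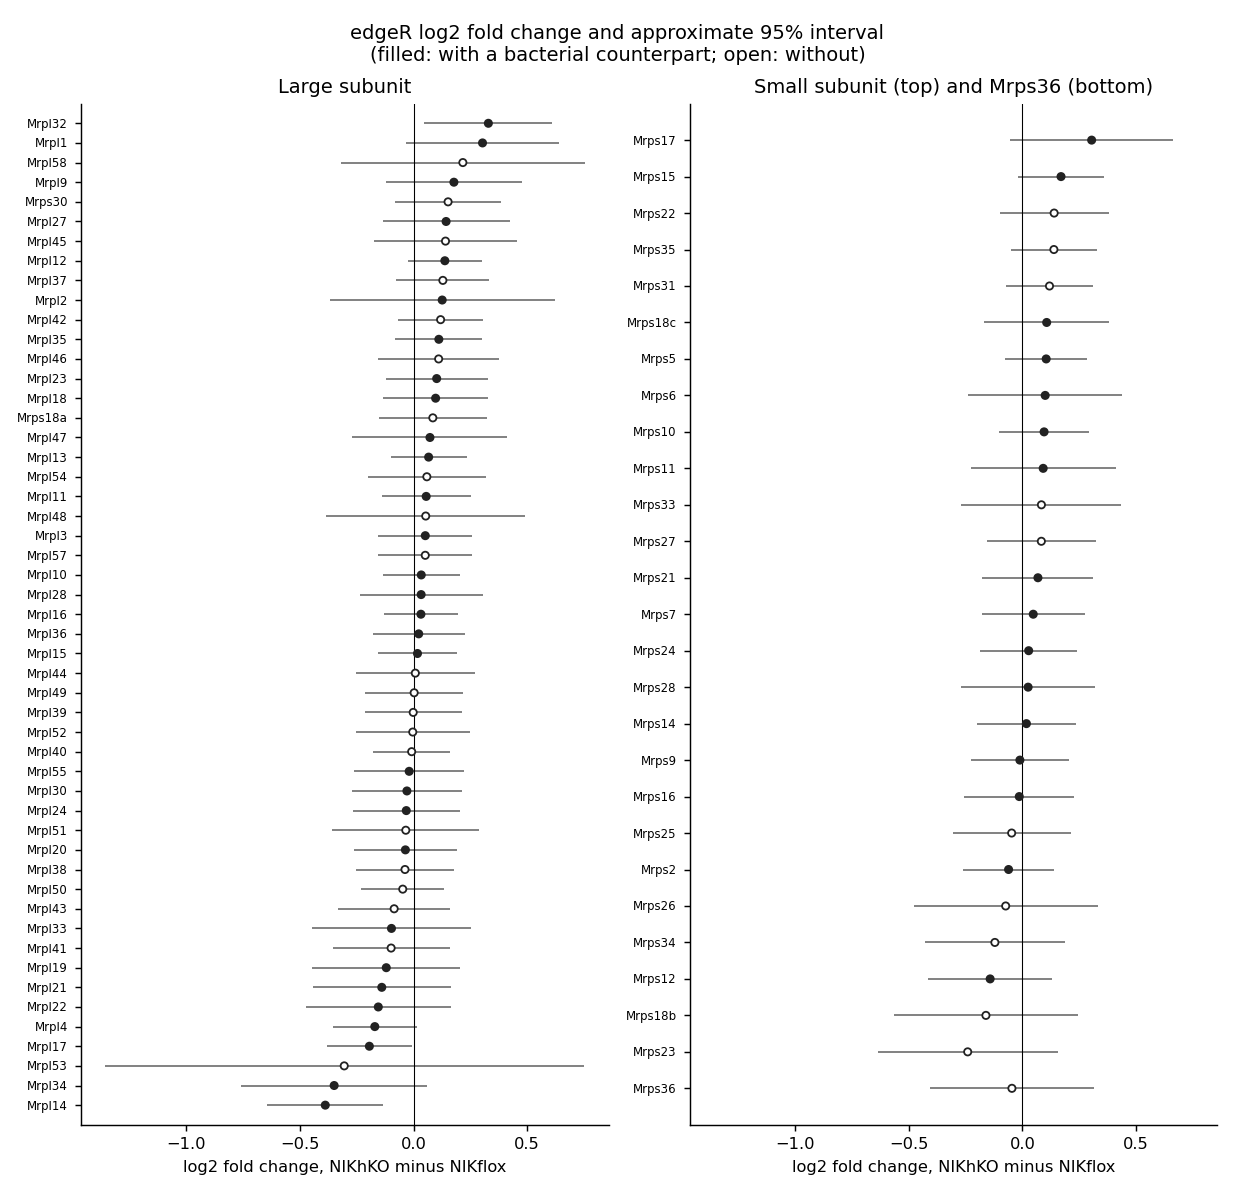
Log2 fold change, NIKhKO minus NIKflox, of each of the 78 genes with its approximate 95% interval (edgeR), for the large subunit on the left and the small subunit with Mrps36 on the right; filled dots have a bacterial counterpart and open dots do not. Intervals of 3 genes, Mrpl32, Mrpl17 and Mrpl14, leave out zero before adjustment, and that of Mrpl53 is the widest.

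The 26 small-subunit genes split 17 positive to 9 negative, with a median log2 fold change of 0.06, and none had an unadjusted p below 0.05. Of the 16 with a bacterial counterpart, 12 were positive, and of the 10 specific to mitochondria, 5. Mrps15, for uS15m, which binds ribosomal RNA early in assembly in bacteria, read 18.7, 18.3, 18.3, 18.1 and 21.6 FPKM in NIKhKO livers, against 17.97, 17.8, 17.4, 18.6 and 16.5 FPKM in NIKflox livers. NIKhKO 5 stood above the other 4 NIKhKO livers, which lay close together and reached into the NIKflox range. The log2 fold change of Mrps15 was 0.17 (SE 0.09, adjusted p = 0.55, edgeR's quasi-likelihood test), and 0.11 without NIKhKO 5. Mrps17 (uS17m) read 4.49, 2.73, 3.96, 4.01 and 3.11 FPKM in NIKhKO livers, against 2.75, 2.61, 2.66, 3.91 and 3.61 FPKM in NIKflox livers. The genotypes overlapped over most of their range, with a log2 fold change of 0.30 (SE 0.16, adjusted p = 0.59). Mrps10, for uS10m, was the steadiest gene over NIKflox livers, at 2.95 ± 0.0846 FPKM, against 3.02 ± 0.316 FPKM in NIKhKO livers.

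Mrps12 encodes uS12m of the decoding centre, where the codon is read. Mrps12 read 32.4, 29.3, 20.8, 25.1 and 25.8 FPKM in NIKhKO livers, against 27.5, 28.5, 28.6, 41.1 and 28.1 FPKM in NIKflox livers. NIKflox 4 stood above all others, and the log2 fold change of -0.14 (SE 0.12, adjusted p = 0.77) was -0.03 without it. Mrps23 (mS23) read 11.8, 9.76, 11.6, 13.9 and 9.24 FPKM in NIKhKO livers, against 10.1, 14.6, 16.7, 18.7 and 9.95 FPKM in NIKflox livers, a log2 fold change of -0.24 (SE 0.18, adjusted p = 0.73) that was -0.13 without NIKflox 4. Mrps18b (mS40) read 10.9, 13.3, 13.8, 9.14 and 15.0 FPKM in NIKhKO livers, against 9.54, 17.8, 16.6, 17.1 and 12.1 FPKM in NIKflox livers, and overlapped over most of its range. Its log2 fold change of -0.16 was 0.02 without NIKflox 2 and 4. NIKflox 4 was also the liver with the most muscle marker RNA, and the part of that RNA in these values was not tested. Mrps34 (mS34), with 63.4% of its exon bases shared with Mapk8ip3 on the other strand, had 10.3 ± 2.35 FPKM in NIKhKO and 11.6 ± 1.34 FPKM in NIKflox and a log2 fold change of -0.12, which was -0.20 without NIKhKO 2 and -0.04 without NIKhKO 3. Mrps35 and Mrps31 had log2 fold changes of 0.14 and 0.12 (adjusted p = 0.66 and 0.72).

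Mrps36 is a ribosomal protein by symbol only, since its product KGD4 is now known as a subunit of the 2-oxoglutarate dehydrogenase complex of the citric acid cycle. Mrps36 had 10.7 ± 1.902 FPKM in NIKhKO and 11.6 ± 1.86 FPKM in NIKflox (SD, n = 5 each), with a log2 fold change of -0.05 (SE 0.16, adjusted p = 0.96, edgeR's quasi-likelihood test). It has 3 processed pseudogenes in the table, at means of 1.24 and 0.639 FPKM and, for the last, at 0.0001 FPKM in every library.

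Summed over all 78 genes, the level was 1163, 1194, 931, 1002 and 1082 FPKM in NIKhKO livers 1 to 5, against 1087, 1031, 1141, 1258 and 1103 FPKM in NIKflox livers 1 to 5. The NIKhKO livers held both the second highest and the lowest sum, and the genotypes overlapped, at 1074 ± 110 FPKM in NIKhKO and 1124 ± 84.4 FPKM in NIKflox (SD, n = 5 each). In whole liver, fewer cells of a type and less RNA per cell cannot be told apart. In NIKhKO 1, 2 and 5, 58, 52 and 55 of the 78 lay above their own mean over the 10 livers, and in NIKhKO 3 and 4, 21 and 29 did (log2 counts scaled to TMM library size, which centres all genes near zero in every liver). In NIKflox livers 1 to 5 the counts were 48, 27, 32, 50 and 32. Without that centring, on the log2(FPKM + 1) scale, the median deviation of the 78 genes was lowest in NIKhKO 3 at -0.16, where that of all genes tested was -0.08. It was highest in NIKflox 4 at 0.15, where that of all genes tested was 0.08.

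The median deviation of the 78 genes from their own means was 0.11, 0.08, -0.08, -0.05 and 0.05 in NIKhKO livers 1 to 5, against 0.04, -0.06, -0.03, 0.05 and -0.02 in NIKflox livers 1 to 5, on the TMM-scaled log2 scale. The spread among NIKhKO livers was thus wider than that among NIKflox livers, and NIKhKO 3 and 4 were the low ones. Those 2 livers also had the highest share of counts from mitochondrially encoded genes, 12.2 and 12.7%, against 8.76, 8.64 and 11.6% in NIKhKO 1, 2 and 5, and 10.5, 11.1, 9.24, 7.15 and 8.90% in NIKflox livers 1 to 5. Base composition moved too. Across genes within NIKhKO 3 and 4, the deviation and GC content had a Spearman rho of -0.16 and -0.22 over the 78 genes and of -0.22 and -0.29 over all genes tested, and in NIKflox 4 of 0.32 and 0.28. In the other livers the rho over the 78 genes was 0.03, 0.02 and -0.04 in NIKhKO 1, 2 and 5, and -0.13, -0.02, 0.23 and 0.21 in NIKflox 1, 2, 3 and 5, so it did not follow the medians in every liver. The part of mitochondrial RNA and base composition in the libraries' medians was not tested. Single genes had a median coefficient of variation of 14.3% over NIKhKO livers and 10.7% over NIKflox livers, against 17.4% and 18.2% for all genes tested. The 78 genes had a median level of 11.3 FPKM, against 3.25 FPKM for all genes tested, and the comparison was not matched for level.

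**Figure D5:**
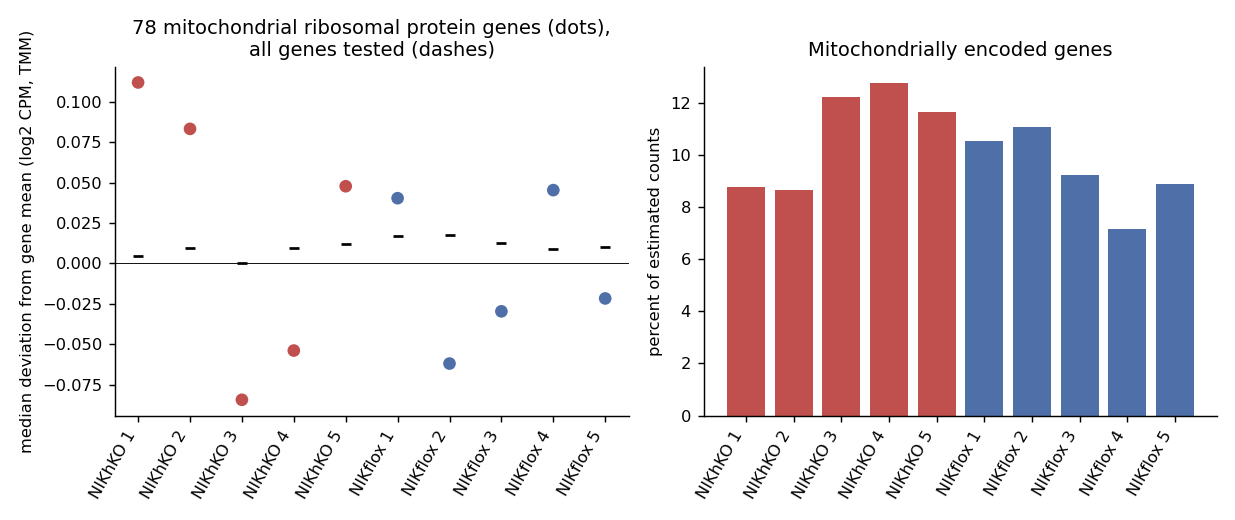
Left, the median over 78 genes of the deviation from each gene's mean (log2 counts scaled to TMM library size) in each liver as dots, with that of all genes tested as dashes; right, the percent of estimated counts from mitochondrially encoded genes; NIKhKO red, left of NIKflox blue. NIKhKO 3 is lowest on the left at -0.08 and, with NIKhKO 4, among the highest on the right at 12.2 and 12.7%.

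The rest of the mitochondrial translation machinery was read from fixed lists, and none of their genes was called. Of 5 mitoribosomal proteins with other symbols, 1 had a log2 fold change above zero and 4 below. That 1, the only gene of the 5 with an unadjusted p below 0.05, was Dap3. Dap3, the GTP-binding mS29 of the small subunit, read 5.66 ± 0.819 FPKM in NIKhKO and 4.88 ± 0.572 FPKM in NIKflox (SD, n = 5 each), and its log2 fold change was 0.28 (SE 0.11, adjusted p = 0.42, edgeR's quasi-likelihood test). Gadd45gip1 (mL64) and Aurkaip1 (mS38) had log2 fold changes of -0.15 and -0.08. Of 33 assembly factors and ribosomal RNA modifiers, 20 were positive with a median of 0.08, and the 3 with the smallest p were Eral1, a chaperone of small-subunit RNA, at 0.28, Rbfa at 0.25 and Gtpbp10 at 0.17. Of 22 translation factors and activators, 13 were positive with a median of 0.06, and Mtres1, Mtfmt, which formylates the initiator methionine, and Mtif3, an initiation factor, had -0.21, 0.22 and 0.32. Of 17 mitochondrial aminoacyl-tRNA synthetases, 10 were positive with a median of 0.03, and Nars2 and Fars2 had 0.29 and 0.20. No gene of the last 3 lists had an unadjusted p below 0.05, where 10% of all genes tested did. Scaled by library totals alone, the medians of these 3 lists were 0.01, -0.01 and -0.04, so they share the dependence on scaling seen for the 78 genes.

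Of 20 genes of mitochondrial DNA maintenance and transcription, 16 were positive with a median of 0.06 (9 and -0.01 with library totals). An unadjusted p below 0.05 was found for 1 of the 20, against 10% of all genes tested. That gene was Hsd17b10, a subunit of mitochondrial RNase P, with 62.9 ± 6.33 FPKM in NIKhKO and 53.5 ± 10.9 FPKM in NIKflox (log2 fold change 0.30, SE 0.14, adjusted p = 0.49). Mterf2 and Pnpt1 had 0.54 and 0.13. Tfam, which packages and transcribes mitochondrial DNA, had 8.73 ± 1.15 FPKM in NIKhKO and 8.58 ± 0.663 FPKM in NIKflox. Of 17 regulators of nuclear genes for mitochondria, 5 were positive with a median of -0.10. This median ran from -0.17 to -0.03 over the 25 alternatives. An unadjusted p below 0.05 was found for 3 on the lower side (5.14% of all genes tested) and 1 on the higher (4.85%). The 1 on the higher side, named after its value was seen, was Ppargc1b, a coactivator of the PGC-1 family, at 0.661 ± 0.212 FPKM in NIKhKO and 0.437 ± 0.120 FPKM in NIKflox (adjusted p = 0.44, edgeR's quasi-likelihood test). Its NIKflox mean lay below the minimum of 0.5 FPKM. Ppargc1b thus passed the filter only through the NIKhKO livers, and the filter favoured its sign. The 3 with the smallest p were Ddit3 and Atf5, stress-induced transcription factors, and Pprc1, a PGC-1-related coactivator. Ddit3 had 4.64 ± 0.726 FPKM in NIKhKO and 7.00 ± 1.19 FPKM in NIKflox, Atf5 308 ± 22.2 in NIKhKO and 423 ± 76.0 in NIKflox, and Pprc1 1.18 ± 0.256 in NIKhKO and 1.84 ± 0.453 in NIKflox (SD, n = 5 each). Their log2 fold changes were -0.53, -0.39 and -0.57 (adjusted p = 0.26, 0.27 and 0.36, edgeR's quasi-likelihood test). Nrf1 and Gabpa, for the factors whose motifs were counted in the promoters, had log2 fold changes of 0.27 (SE 0.28) and 0.02 (SE 0.15), and Yy1 had -0.02 (SE 0.08). Nrf1 averaged 0.575 FPKM in NIKhKO and 0.494 FPKM in NIKflox, so it too passed the filter only through the NIKhKO livers. The 14 genes with the NRF1-type motif had a median log2 fold change of 0.02 and the 55 without it 0.05. The 12 with the ETS-type motif had 0.05 and the 57 without it 0.03. The 8 with the YY1-type motif, all of them positive, had 0.09, and the 61 without it, 34 of them positive, had 0.03. Signs depended on scaling, since 47 of the 78 genes were positive here and 31 with library totals alone. The motif groups were not recomputed with other scalings, and a link of motif and direction was not tested.

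All 15 mitochondrially encoded genes tested had log2 fold changes above zero, against 48.2% of all genes tested, with a median of 0.24. With library totals alone 14 of the 15 were positive, and without NIKflox 2 and 4 also 14. None was called, where 0.0236% of all genes tested were. An unadjusted p below 0.05 was found for 2 of the 15, both higher in NIKhKO livers (4.85% of all genes tested). The median ran from 0.15 to 0.34 over the 25 alternatives, lowest without NIKhKO 3, and was 0.17 with library totals. mt-Co1 had 18251 ± 2842 FPKM in NIKhKO and 14772 ± 1095 FPKM in NIKflox (SD, n = 5 each). Its log2 fold change was 0.37 (SE 0.15, adjusted p = 0.43), and mt-Nd6 and mt-Co2 had 0.27 and 0.25. These genes are transcribed together as long polycistronic RNAs, so they are not independent. mt-Rnr1 and mt-Rnr2, the RNAs of the mitochondrial ribosome itself, ran from 691 to 2451 and from 289 to 1144 FPKM in NIKhKO livers, against 671 to 1504 and 355 to 728 FPKM in NIKflox livers. Both ribosomal RNAs overlapped between the genotypes, and how fully oligo(dT) beads captured them was not tested.

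The closest set outside the mitochondrion, 81 cytosolic ribosomal protein genes, lay above zero in 5 and below zero in 76, with a median log2 fold change of -0.18, and 0 were called by edgeR's adjusted test. Of these 81, 22 had an unadjusted p below 0.05, all lower in NIKhKO livers, against 5.14% of all genes tested on the lower side. The median ran from -0.26 to -0.16 over the 25 alternatives. The 3 with the smallest p were Rpsa, Rps15a and Rpl10a. Rpsa had 99.8 ± 4.46 FPKM in NIKhKO and 132 ± 16.6 FPKM in NIKflox, Rps15a 11.3 ± 0.594 in NIKhKO and 14.5 ± 1.15 in NIKflox, and Rpl10a 53.0 ± 6.88 in NIKhKO and 73.3 ± 7.86 in NIKflox (SD, n = 5 each; adjusted p = 0.25, 0.26 and 0.26, edgeR's quasi-likelihood test). These genes have many processed pseudogenes with which reads may be shared. Whether the cytosolic and mitochondrial sets differ was not tested.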

How the data were processed

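RNA from 10 mouse livers, 5 NIKhKO and 5 NIKflox, was deposited as 1 table of 55401 genes. Per the file headers, the authors gave each gene an FPKM value and an estimated count per library, the count being a whole number that is not normalized. Tools listed in the submitters' processing notes are HISAT2 2.0.4, StringTie 1.3.4d, cutadapt 1.9 and edgeR. The build listed there is the human hg38, although the gene identifiers belong to mouse, and 55141 of them matched GENCODE M21 of GRCm38, and coordinates are printed as deposited. Strandedness is given in no source used here, so reads of overlapping genes on opposite strands may be mixed. Over all genes a count of 4 occurred 9070 times and a count of 3 3305 times, so a fragment may add more than 1 count and totals may overstate depth, whereas among the 78 genes 25.4% of counts were multiples of 4.

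Genes with a mean of at least 0.5 FPKM, with Map3k14, were tested with edgeR 4.0.16 in R 4.3.3 (quasi-likelihood, TMM, two-sided, Benjamini-Hochberg, called below 0.05). The SE is the log2 fold change over the square root of F. Alternatives used DESeq2 1.42.0, limma 3.58.1 on log2(FPKM + 1) and log2(FPKM + 0.1), voom, other scalings and filters, and left out libraries. The genes and lists (related machinery, cytosolic ribosomal proteins, cell type markers) were chosen with earlier results of these data known. Named genes were the 10 with the smallest p in each direction, the 5 highest and 5 lowest levels, the 5 most and 3 least variable over NIKflox livers, and Mrps18a, Mrps30 and Mrps36, with the 3 smallest p in each list, of which 1 is not reported here. Mrpl45, Mrpl52, Mrpl58 and the pathway genes Tfam, Nrf1, Gabpa and the mitochondrial ribosomal RNAs were named after their values were seen.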

Additional observations from a re-analysis of the deposited data

Results flagged for a closer look

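Of 70 sets of 5 livers examined for a liver far from the others of its genotype (Dixon's ratio above 0.71), 5 held one, and chance alone flags about 1 in 20. Mrps15 in NIKhKO 5 was 21.6 FPKM, where the next highest NIKhKO liver had 18.7 FPKM. Mrps12 in NIKflox 4 was 41.1 FPKM, where the next had 28.6 FPKM. Mrpl22 in NIKflox 1 was 31.1 FPKM, where the next had 21.7 FPKM. Mrpl3 in NIKflox 4 was lowest of its genotype at 2.36 FPKM, where the next had 2.69 FPKM. Map3k14 in NIKflox 4 was 0.899 FPKM, where the next had 0.585 FPKM. NIKflox 4 thus stood apart in 3 of the 5, and it was also the liver with the most muscle marker RNA, the lowest share of mitochondrially encoded counts (7.15%) and the largest number of counts, 65052525. The part of these in the 3 values was not tested.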

How the results depend on the processing

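No mitochondrial ribosomal protein gene was called under any of 25 alternatives, and the lowest adjusted p of a named one was 0.124, with DESeq2. The number with a log2 fold change above zero, 47, was 31 with library totals alone, 29 with limma at either pseudocount and 27 with limma on FPKM rescaled without mitochondrially encoded genes, an alternative chosen after seeing the data. Their median, 0.033, was -0.038 with library totals, -0.035 with limma on log2(FPKM + 0.1) and -0.041 with the rescaled FPKM. Minus the median of all genes it ran from 0.021 to 0.063 and was above zero in 25 of 25, where the SD of the libraries' medians was 0.066. These alternatives reuse the same livers, so their number cannot decide whether the set has a direction. The count with an unadjusted p below 0.05, 3, was 7 with voom, 1 without NIKflox 2 and 4, and 1 to 5 without single libraries (lowest without NIKhKO 3). Over all genes the 3 calls became 207 with DESeq2, 9 with library totals, 6 with robust shrinkage, 5 with voom, 1 without NIKflox 2 and 4, 0 with limma in its 3 forms, and 0 to 24 without single libraries (0 without NIKhKO 1, 24 without NIKhKO 4). The replicate block gave 2 calls over all genes and 0 among the 78. Same-numbered livers deviated with correlations from -0.25 to 0.051, and no NIKhKO liver correlated best with the NIKflox liver of its own number. No label says whether same-numbered mice are related, and these correlations cannot decide it, since related livers may also correlate weakly.

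Of 800 values of 32 named genes, 22 changed sign, in 9 genes. With library totals Mrpl3 was -0.014 and Mrpl48 -0.0093. With limma on log2(FPKM + 1), Mrps21 was -0.0076, Mrpl3 -0.0066 and Mrpl48 -0.030, and with log2(FPKM + 0.1) -0.0081, -0.0085 and -0.065. With the rescaled FPKM, Mrps21 was -0.021, Mrpl3 -0.016, Mrpl48 -0.040 and Mrpl13 -0.0088. Mrps36 was 0.019 with voom. Without NIKflox 2 and 4, Mrps18b was 0.024 and Mrpl18 -0.0033. Without single libraries Mrpl22 ran from -0.22 to 0.0079, Mrpl48 from -0.053 to 0.21, Mrpl2 from -0.030 to 0.24 and Mrps36 from -0.12 to 0.061. The cause was not tested. The 95% intervals of 69 of the 78 genes lay within 1.5-fold, and changes smaller than the intervals were not detectable with 5 livers per genotype.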

Other observations

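Of the 78 genes, 33 (42.3%) had a protein-coding neighbour transcribed the other way from a start within 1000 bases, against 1801 of 10601 coding genes tested (17%). Several neighbours serve the mitochondrion too. Mrpl46 and Mrps11 start 412 bases apart and overlap in the deposited coordinates, Mrps12 lies 172 bases from Sars2, a mitochondrial seryl-tRNA synthetase, Mrpl43 lies 779 bases from Twnk, the mitochondrial DNA helicase, and Mrpl36 and Mrpl47 lie 29 and 615 bases from the complex I genes Ndufs6 and Ndufb5. Of the 28 neighbours tested, none was called, and the median log2 fold change was -0.03. An unadjusted p below 0.05 was found for 3 of the 28, against 10% of all genes tested. These 3 were Pnpla7 beside Mrpl41, Helq beside Mrps18c and Ptcd2 beside Mrps27, named after their values were seen. Ptcd2, for a pentatricopeptide protein that handles mitochondrial RNA, had 11.6 ± 0.408 FPKM in NIKhKO and 14.8 ± 1.60 FPKM in NIKflox (SD, n = 5 each; adjusted p = 0.33, edgeR's quasi-likelihood test), while Mrps27 had 11.5 ± 1.31 FPKM in NIKhKO and 11.3 ± 1.99 FPKM in NIKflox. Exons of 33 of the 78 overlapped those of another gene, on the opposite strand in 26.

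The marker lists of other liver cells held no called gene, where 0.0236% of all genes tested were called. Of all genes tested, 48.2% had a log2 fold change above zero. B and plasma cell markers had log2 fold changes above zero in 7 of 7 with a median of 0.94. Of these, 6 had an unadjusted p below 0.05 on the higher side, where 4.85% of all genes tested did. The markers summed to 11.9 to 28.5 FPKM in NIKhKO livers and to 11.4 to 23.4 FPKM in NIKflox livers. Over the 25 alternatives their median ran from 0.71 to 1.23. Stellate cell markers were below zero in 11 of 11 with a median of -0.31, which was -0.14 without NIKflox 2. Cholangiocyte markers were below zero in 5 of 5 with a median of -0.53 (-0.74 to -0.26 over the alternatives). Kupffer cell and macrophage markers were above zero in 11 of 12 with a median of 0.11, which was 0.01 without NIKflox 3 and 0.26 without NIKflox 2 and 4, with 7 to 11 positive over the alternatives. T and NK cell markers were above zero in 3 of 3 (0.25, range 0.06 to 0.48) and endothelial markers in 2 of 11 (-0.08, range -0.21 to -0.0030). Hepatocyte markers were above zero in 3 of 10 (-0.06, range -0.12 to -0.0063) and adipose markers in 0 of 3 (-0.43, and 0.53 without NIKflox 2 and 4). The adipose marker Cfd passed the filter on low values only through NIKflox 2, at 14.4 FPKM against at most 0.956 FPKM in any other liver. Its sign was thus fixed by the filter. The cholangiocyte marker Krt19 averaged 0.459 FPKM in NIKhKO and 1.05 FPKM in NIKflox, and the endothelial marker Flt1 0.417 and 0.617 FPKM. Both passed the filter only through the NIKflox livers, so the filter favoured their signs. The filter on low values kept 7 of 19 muscle markers, 3 of 12 T and NK cell markers and 3 of 7 adipose markers. It kept 5 of 7 cholangiocyte markers and 7 of 9 B and plasma cell markers.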
